A study of Mus musculus with 8 samples.

Results

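Of the 13305 genes listed for whole bone marrow (BM) of mice with acute myeloid leukemia (AML), 9 were followed across Gab2 genotypes: the lysozyme genes Lyz1 and Lyz2 and the monocyte genes Ly6c2, Ccr2, Cx3cr1, F13a1, Ms4a6c, Cd14 and Vcan. They form a list of gene names, made up of genes known to be expressed in monocytes and the neighbouring lysozyme pair. The list was drawn up with earlier results of these data known, and all 9 were in the table. All mice were C57BL/6N animals with Mx1-Cre, Dnmt3a+/- and Flt3ITD/ITD, and Gab2 was the only locus that differed by label: Gab2+/+ in 3 AML WT, Gab2+/- in 2 AML HET and Gab2-/- in 3 AML KO mice. Gab2 is a docking protein that passes signals from receptor tyrosine kinases to downstream enzymes. Mx1-Cre is driven by an interferon-responsive promoter, and per the study's methods it was active here without injection of an inducer, so recombination was not timed. The Gab2 allele is a germline knockout, so every cell of the mouse carried it, and mice without the leukemia alleles were not analysed here. Each library came from 1 mouse, no treatment is given by the labels, and the age of the sequenced mice is not given in the sources used here.

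Monocytes arise in BM from granulocyte and monocyte progenitors and leave for the blood as classical cells, which carry Ly6C and CCR2, or as patrolling cells, which carry more CX3CR1. Lysozyme cleaves the peptidoglycan of bacterial walls. Mice have a pair of lysozyme genes, of which Lyz2 is the form of macrophages, monocytes and granulocytes and Lyz1 is best known from Paneth cells of the intestine.

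The libraries held 28009258 to 39266815 counts. Gab2 itself was at 74.7 ± 17.0 CPM (counts scaled to library size; mean ± SD, n = 3) with Gab2+/+, 53.3 ± 3.57 (n = 2) with Gab2+/- and 40.8 ± 6.15 (n = 3) with Gab2-/-, and each AML KO mouse was below each AML WT mouse. The remaining counts in AML KO mice cannot be placed on exons here, since the table holds sums per gene. The 8 libraries were whole BM and not sorted monocytes: the summed level of 19 mature neutrophil markers was 1849 to 5382 CPM for AML WT, 6143 to 6933 for AML HET and 11673 to 18579 for AML KO mice, and that of 15 erythroid markers was 340.0 to 473.0, 745.7 to 2363 and 1630 to 5638 CPM. In such a mixture, fewer cells of a type and less RNA per cell cannot be told apart.

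Lyz1 and Lyz2 lie 5475 bases apart on the minus strand of chromosome 10 in GRCm38 (mm10). Lyz2 occupies chr10:117277331-117282321 and Lyz1 chr10:117287797-117292868, and the annotated Lyz1 transcript has 4 exons. Their coding sequences, of 447 bases each, differed at 22 bases (95.08% identical), and 12 of 148 codons before the stop encoded a different amino acid. Coding bases 7 to 156 are shown because 15 of the 22 differences fall there. They were read from the GRCm38 genome along the spliced coding exons, within chr10:117291174-117292832 for Lyz1 and chr10:117280786-117282236 for Lyz2, 5′ to 3′, with the bases that differ in capitals.
Lyz1: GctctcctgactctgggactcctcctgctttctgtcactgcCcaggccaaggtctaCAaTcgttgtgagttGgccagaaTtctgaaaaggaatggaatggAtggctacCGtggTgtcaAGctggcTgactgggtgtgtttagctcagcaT
Lyz2: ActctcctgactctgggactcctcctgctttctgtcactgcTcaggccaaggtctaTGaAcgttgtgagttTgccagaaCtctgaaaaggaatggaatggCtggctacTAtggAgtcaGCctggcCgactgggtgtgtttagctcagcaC
Reads across these capitals can be assigned to a gene, whereas the longest identical coding stretch ran for 118 bases. Over the whole Lyz1 transcript, 16.06% of stretches of 50 bases and 2.062% of stretches of 100 bases also occur in another annotated gene. For Lyz2 these shares were 15.39% and 1.972%. How the authors counted reads that match several genes is not given in the sources used here, so the Lyz1 values carry this limit. It can be large, since Lyz1 had 111 to 436 counts per mouse and Lyz2 had 223323 to 411614. Even a very small share of Lyz2 reads placed on Lyz1 would weigh on the Lyz1 counts, and this was not tested.

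The 200 bases upstream of each lysozyme gene were also alike. They are shown because the genes, side by side and related in sequence, differ so widely in level per length. The sequences are from the RefSeq promoter table for GRCm38.p6, minus strand, 5′ to 3′, at chr10:117282322-117282521 for Lyz2 and chr10:117292869-117293068 for Lyz1. Each run ends just before the gene start annotated in GENCODE M21. For Lyz1 this is also the RefSeq start. The GENCODE start of Lyz2 lies upstream of its RefSeq start, so the Lyz2 run ends farther from the RefSeq start than the Lyz1 run. Capitals mark the longest stretch the runs share, of 14 bases.
Lyz2 upstream: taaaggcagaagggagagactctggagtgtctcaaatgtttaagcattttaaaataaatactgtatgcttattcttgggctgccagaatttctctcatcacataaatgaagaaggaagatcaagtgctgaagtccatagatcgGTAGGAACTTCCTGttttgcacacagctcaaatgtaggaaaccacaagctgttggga
Lyz1 upstream: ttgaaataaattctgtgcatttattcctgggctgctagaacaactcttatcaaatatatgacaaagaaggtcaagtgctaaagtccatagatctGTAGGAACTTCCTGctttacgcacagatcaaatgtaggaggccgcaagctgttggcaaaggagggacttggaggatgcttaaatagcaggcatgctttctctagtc
In the best local alignment, 82.0% of 150 columns were identical. The letters GAGGAA, a form of the site bound by the myeloid factor PU.1, and TTGCNNAA, a C/EBP core, were searched on both strands. Neither occurred in the printed runs. The shorter GGAA, part of GAGGAA, lies in the shared stretch, and other forms of either site were not searched. Of 32544 promoter windows reaching 250 bases before to 50 after the start, 28.1% held the first and 10.8% the second. The Lyz1 window of that size held TTGCNNAA once, 209 bases before the start, and windows of Ly6c2 and F13a1 held GAGGAA. No window of Cd14 was at hand, so Cd14 was not searched.

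Lyz2 was among the most abundant transcripts of these marrows. Per kilobase of transcript (RPKM, a level), it had a mean of 7959 for AML WT, 7780 for AML HET and 6595 for AML KO mice and held rank 1 of the genes with a transcript length. Lyz1 had a mean of 8.71, 5.99 and 3.11 RPKM, rank 7776. Among the monocyte genes, the order of RPKM over all mice was Ly6c2 (rank 63), F13a1 (223), Ccr2 (353), Ms4a6c (561), Cx3cr1 (1907), Cd14 (8605) and Vcan (9167). Lyz1, Cd14 and Vcan were thus low on the scale per length, and Vcan has the longest transcript of the 9, at 12427 bases. In AML WT mice the mean levels of Cd14 and Vcan, 5.51 ± 0.90 and 6.75 ± 4.36 RPKM (SD, n = 3), differed by less than the SD of Vcan, though by more than that of Cd14.

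**Figure D1:**
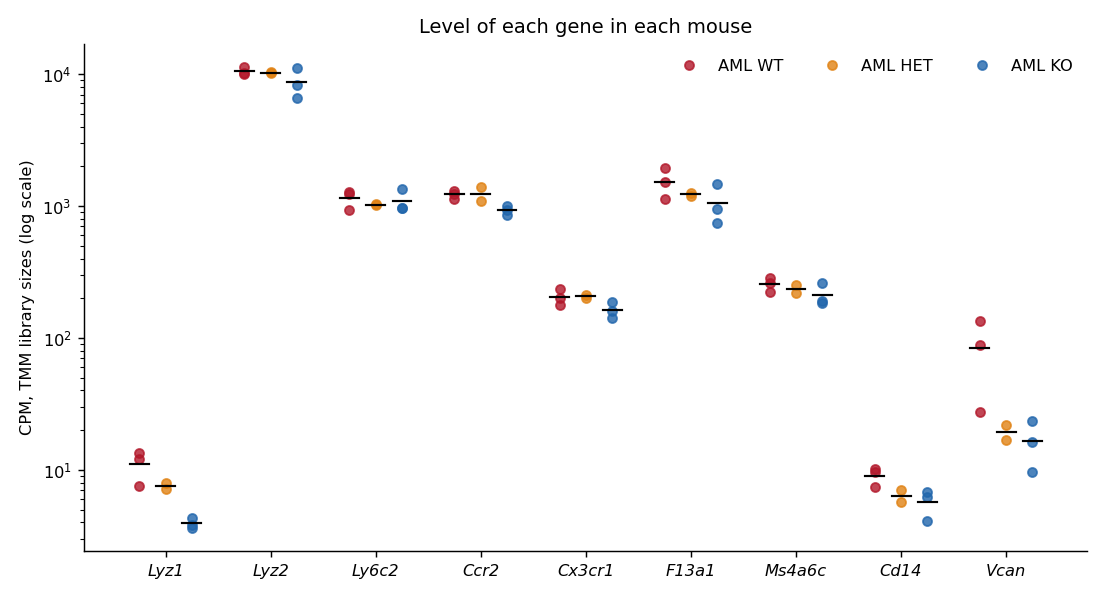
Level of each of the 9 genes in every mouse (CPM on a log axis; 1 point per mouse, bars show group means). Lyz1 was lower in each AML KO mouse, at 3.63 to 4.33 CPM, than in every other mouse, while the Vcan levels of AML WT mice ranged from 27.4 to 135 CPM.

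Between AML KO and AML WT BM, all 9 genes had a lower fitted level in AML KO, and Lyz1 fell past the threshold. Of all 13305 genes, 51.9% were lower. With edgeR's quasi-likelihood test and Benjamini-Hochberg adjustment over all genes, 1 of 9 was called at an adjusted p under 0.05, against 2.09% of all genes in either direction and 0.323% lower in AML KO. The unadjusted p was under 0.05 for 5 of the 9: Lyz1, Vcan, Ccr2, Cd14 and Cx3cr1, against 17.7% of all genes. All AML KO mice were below all AML WT mice for 4 of the 9 (Lyz1, Vcan, Ccr2 and Cd14), against 9.83% of all genes. The median log2 fold change of the 9 was −0.40, and that of all genes was −0.02.

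**Figure D2:**
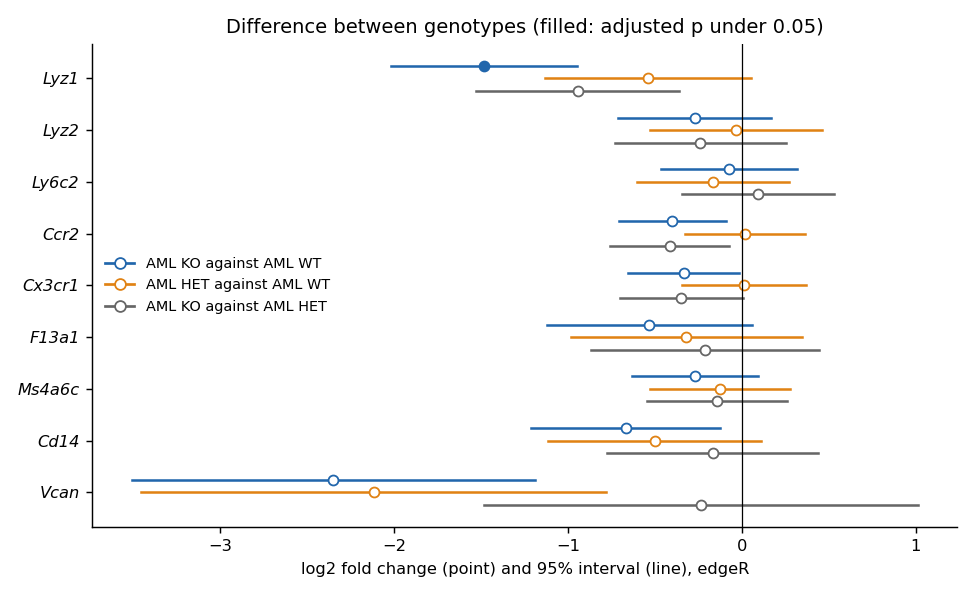
Log2 fold change of each gene (point) with its 95% interval (line) for 3 comparisons, from edgeR. Only the AML KO against AML WT value of Lyz1 is filled (adjusted p under 0.05), and Vcan has the widest intervals.

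In mouse order, as for all genes here, Lyz1 was at 7.57, 12.1 and 13.3 CPM in AML WT mice 1, 2 and 3, at 7.15 and 7.97 CPM in AML HET mice 1 and 2, and at 3.63, 4.33 and 3.83 CPM in AML KO mice 1, 2 and 3. AML KO mice were the lowest, without overlap with either other group, and AML WT mouse 1 lay between the AML HET mice. Lyz1 fell by 1.48 on the log2 scale from AML WT to AML KO (standard error 0.24, 95% interval −2.02 to −0.95, adjusted p = 0.0158 from edgeR). Behind these levels stood 111 to 436 counts per mouse. Leaving out 1 mouse at a time moved the adjusted p from 0.0107 to 0.0845, and it rose above 0.05 without AML WT mouse 2 (0.0845), AML KO mouse 1 (0.0523) or AML KO mouse 3 (0.0721), while the log2 fold change stayed between −1.70 and −1.32.

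Lyz2 did not pass the test. Its levels were 10120, 11316 and 9987 CPM in AML WT, 10156 and 10322 for AML HET and 8256, 11201 and 6581 for AML KO mice. AML KO mouse 2 lay among the AML WT mice, and the groups overlapped; the AML KO mice spread most. Taken as AML KO over AML WT, its log2 fold change was −0.27 (standard error 0.20, 95% interval −0.71 to 0.17, adjusted p = 0.454 from edgeR), and it ran from −0.50 without AML KO mouse 2 to −0.11 without AML KO mouse 3. Neutrophils also express Lyz2, and the neutrophil marker sums given above were higher in AML KO mice; their part in the Lyz2 level was not tested.

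The share of Lyz1 in the counts of both lysozymes does not depend on library size. It was 0.0748% (95% Wilson interval 0.0669 to 0.0836), 0.107% (0.0964 to 0.118) and 0.133% (0.122 to 0.147) in AML WT mice 1, 2 and 3. In AML HET mice it was 0.0704% (0.0614 to 0.0807) and 0.0771% (0.0681 to 0.0873), and in AML KO mice 0.0439% (0.0365 to 0.0529), 0.0387% (0.0323 to 0.0462) and 0.0582% (0.0490 to 0.0691). These intervals cover counting error only. Every AML KO mouse had a lower share than every other mouse, although the interval of AML KO mouse 3 overlapped those of AML WT mouse 1 and the AML HET mice. The mean share was 0.0469% ± 0.0101 (SD, n = 3) in AML KO and 0.105% ± 0.0294 (SD, n = 3) in AML WT mice, a difference of −0.0580 percentage points (exact two-sided permutation test, p = 0.1, the smallest that 3 mice against 3 allow). On the scale of log2(Lyz1/Lyz2) the difference was −1.14. Lyz2 counts were 748 to 1336 times those of Lyz1 in AML WT, 1296 to 1420 times in AML HET and 1718 to 2586 times in AML KO mice.

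**Figure D3:**
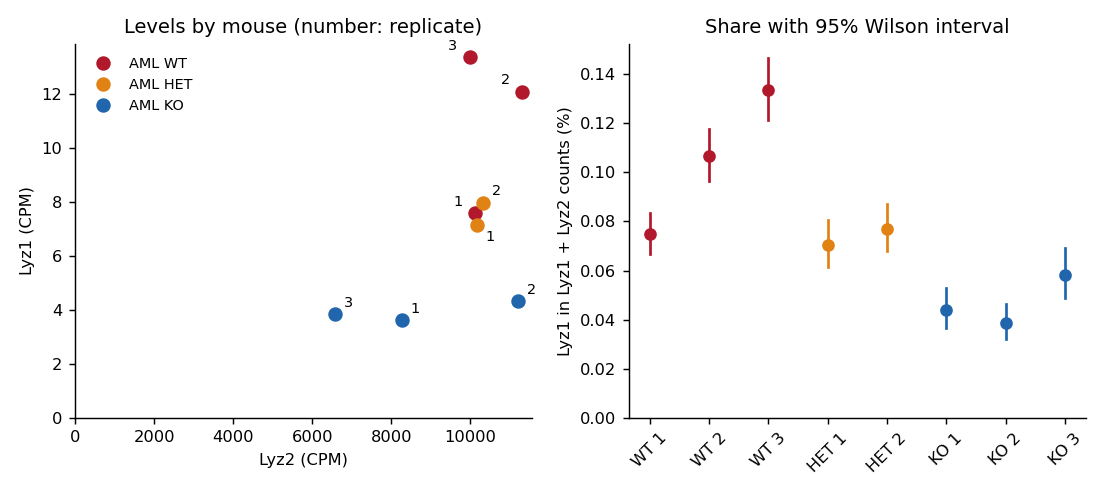
Lyz1 against Lyz2 (CPM, linear axes from 0, 1 point per mouse, numbered) and the share of Lyz1 in the counts of both genes with 95% Wilson intervals, in percent. AML KO mice have the lowest Lyz1 levels and the lowest shares, from 0.0387% to 0.0582%.

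Of the surface receptors, Ccr2, the receptor for the chemokine CCL2 that draws classical monocytes out of the marrow, was at 1228, 1137 and 1305 CPM in AML WT, 1385 and 1089 for AML HET and 994, 938 and 851 for AML KO mice. AML KO mice were below both other groups, which overlapped. A log2 fold change of −0.40 for AML KO over AML WT (95% interval −0.71 to −0.09) had an unadjusted p = 0.0170 and an adjusted p = 0.215 in edgeR. Cx3cr1, the fractalkine receptor, was at 179, 233 and 202 CPM in AML WT, 213 and 200.6 for AML HET and 159, 186 and 142 for AML KO mice. Its groups overlapped through AML KO mouse 2 and AML WT mouse 1, with a log2 fold change of −0.33 (adjusted p = 0.271, edgeR).

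Cd14, a co-receptor for bacterial lipopolysaccharide, was low, with 138 to 322 counts per mouse. Its levels were 7.38, 10.2 and 9.58 CPM in AML WT, 5.75 and 7.01 for AML HET and 6.21, 6.81 and 4.07 for AML KO mice. AML HET and AML KO mice lay below all AML WT mice and overlapped each other. For AML KO over AML WT the log2 fold change was −0.67 (95% interval −1.21 to −0.13, adjusted p = 0.226, edgeR).

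Ly6c2, which encodes the Ly6C antigen used to gate classical monocytes, did not pass the test, and its groups overlapped. It was at 1288, 932 and 1225 CPM in AML WT, 1035 and 1014 for AML HET and 974, 1335 and 969 for AML KO mice, where AML KO mouse 2 was the highest of all. Its log2 fold change of −0.07 (95% interval −0.46 to 0.32, adjusted p = 0.836, edgeR) changed sign without AML WT mouse 1 (0.0088), AML KO mouse 1 (0.0047) or AML KO mouse 3 (0.0073). Ms4a6c, a membrane protein of the MS4A family, was at 282, 224 and 262 CPM in AML WT, 252 and 218 for AML HET and 185, 261 and 191 for AML KO mice. AML KO mouse 2 again lay among the AML WT mice, and the log2 fold change was −0.27 (adjusted p = 0.375, edgeR), running from −0.45 without AML KO mouse 2 to −0.18 without AML KO mouse 1. Both genes have close relatives. Of stretches of 100 bases of Ly6c2, 15.77% also occur in another annotated gene, chiefly Ly6c1, which had 34 to 100 counts. For Ms4a6c this share was 51.26%, chiefly with BE692007, which had 602 to 1684 counts. Counts of Ms4a6c are therefore uncertain in how they were divided.

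Of the secreted products, F13a1 encodes the A subunit of coagulation factor XIII, which crosslinks fibrin and is stored in monocytes and platelets. It was at 1942, 1521 and 1123 CPM in AML WT, 1263 and 1188 for AML HET and 743, 1472 and 956 for AML KO mice. AML KO mouse 2 lay within the AML WT range, and the log2 fold change was −0.53 (95% interval −1.12 to 0.06, adjusted p = 0.315, edgeR). It ran from −0.84 without AML KO mouse 2 (adjusted p = 0.0974; 0.0974 to 0.706 without 1 mouse) to −0.33 without AML WT mouse 1 or AML KO mouse 1. Platelet markers, summed over 12 genes, were at 95.7 to 132 CPM in AML WT and 351 to 472 in AML KO mice; their part in the F13a1 level was not tested.

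Vcan, the matrix proteoglycan versican, had the widest spread of the 9, with a highest level 14.1 times the lowest. It was at 135, 88.9 and 27.4 CPM in AML WT mice 1, 2 and 3, at 16.8 and 21.9 in AML HET and at 9.58, 23.5 and 16.3 in AML KO mice. All AML WT mice were above all other mice, but AML WT mouse 3 was closer to AML KO mouse 2 than to the other AML WT mice. For AML KO over AML WT the log2 fold change was −2.35 (standard error 0.52, 95% interval −3.51 to −1.19, adjusted p = 0.0544, edgeR), which missed the threshold. Over all alternatives the adjusted p ran from 0.00556 (without AML WT mouse 3) to 0.316 (without AML KO mouse 1) and was 0.00772 in DESeq2, and without 1 mouse the log2 fold change ran from −2.76 (without AML WT mouse 3) to −1.83 (without AML WT mouse 1).

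Between AML HET and AML WT BM none of the 9 passed the edgeR test, against 0.0225% of all genes. DESeq2 also called 0 of the 9, against 50 higher and 9 lower of all 13305 genes. With limma-voom 0 of the 9 were called, against 1 of all genes. At an unadjusted p under 0.05 there was 1, Vcan, at −2.12 on the log2 scale (SE 0.60, adjusted p = 0.854, edgeR), against 2.47% of all genes. Both AML HET mice were below all AML WT mice for 2 of the 9 (Vcan and Cd14), against 8.61% of all genes. Lyz1 had a log2 fold change of −0.54 (95% interval −1.13 to 0.05), whereas Ccr2 and Cx3cr1 were at 0.02 and 0.01, with a sign that changed when single mice were left out. The median of the 9 was −0.16.

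Between AML KO and AML HET BM, edgeR called 0 of the 9 and 0.0% of all genes; 2 of the 9 and 780 of all genes (5.86%) had an unadjusted p under 0.05. DESeq2 called 0 of the 9 and 77 genes, and limma-voom called 0 of the 9 and no gene. The 2 were Lyz1, at −0.94 on the log2 scale (SE 0.26, 95% interval −1.53 to −0.36, adjusted p = 0.622), and Ccr2, with −0.42 (adjusted p = 0.767). All AML KO mice were below both AML HET mice for Lyz1, Ccr2 and Cx3cr1, 3 of the 9, against 11.0% of all genes. Vcan was at −0.23, with an interval of −1.48 to 1.01, and was at 0.046 without AML KO mouse 1. The 3 comparisons share mice and are not independent of each other.

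Of 28 other genes of classical monocytes, 21 were lower and 7 higher in AML KO than in AML WT mice, against 51.9% of all genes lower. Their median log2 fold change was −0.22. At an unadjusted p under 0.05 in edgeR there were 7, against 17.7% of all genes. EdgeR called 0, against 2.09% of all genes, and limma-voom 0, against 229 higher and 48 lower of all genes. DESeq2 called 6 (4 lower, 2 higher), against 227 lower and 503 higher of all 13305 genes. Fcgr1, the high-affinity IgG receptor, had a log2 fold change of −1.10 (adjusted p = 0.0829, edgeR), and Clec4a2, an inhibitory C-type lectin, had 0.52 (adjusted p = 0.116). Their summed level was 20186 to 20359 CPM in AML WT, 18818 to 19399 in AML HET and 15522 to 20555 in AML KO mice, and AML KO mouse 2 held the highest value, as it did for Ly6c2. The 9 genes themselves, of which Lyz2 makes up most, summed to 14155 to 15475, 14068 to 14334 and 9715 to 15427 CPM.

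Patrolling monocyte genes, 9 of 10 in the table, had a median of −0.03 between AML KO and AML WT. Of these 9, 5 were lower and 4 higher, against 51.9% of all genes lower. None had an unadjusted p under 0.05 in edgeR, against 17.7% of all genes, and edgeR, DESeq2 and limma-voom called 0. Over all 13305 genes, edgeR called 2.09% and limma-voom 229 higher and 48 lower. Of 12 monocyte regulators 6 were lower and 6 higher, with a median of 0.02. At an unadjusted p under 0.05 in edgeR there were 4, again against 17.7% of all genes. For these regulators edgeR and limma-voom called 0 and DESeq2 called 1, against 503 higher and 227 lower of all 13305 genes in DESeq2. Irf4, a transcription factor of dendritic and lymphoid cells as well, had −0.72 (adjusted p = 0.0585, edgeR), and Cebpb, a C/EBP factor of myeloid cells, had 0.69 (adjusted p = 0.171).

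Of 15 ligands and partners of the 9 genes, 10 could be followed, and the chemokine genes Ccl7, Ccl8 and Ccl12 were not found among the listed genes. Of the 10, 6 were lower and 4 higher in AML KO than in AML WT, against 51.9% of all genes lower. EdgeR, DESeq2 and limma-voom called 0 of the 10. Over all 13305 genes, edgeR called 2.09%, DESeq2 503 higher and 227 lower, and limma-voom 229 higher and 48 lower. At an unadjusted p under 0.05 in edgeR there were 2, against 17.7% of all genes. Ccl2, the main CCR2 ligand, had 18, 21 and 76 counts in AML WT, 29 and 18 in AML HET and 1, 12 and 5 in AML KO mice. AML KO mice were lowest. These counts are not scaled: AML KO mouse 2, at 12, had a library of 28060639 counts and AML WT mouse 1, at 18, of 39266815. Scaling therefore narrows the gap between these mice. The log2 fold change of −2.49 for AML KO over AML WT (adjusted p = 0.206, edgeR) rests on few counts and ran from −3.57 to −1.44 without 1 mouse. Tlr2, which works with CD14 at the cell surface, had −0.35 (adjusted p = 0.230, edgeR).

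**Figure D4:**
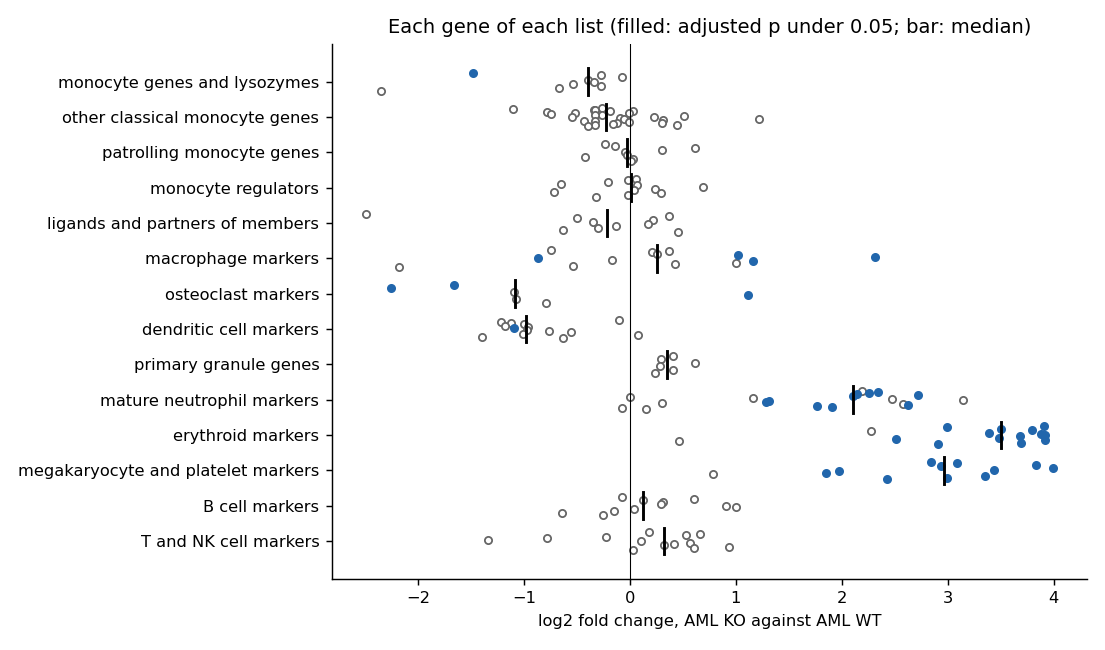
AML KO over AML WT log2 fold change of every listed gene of each group (points; filled where the adjusted p was under 0.05 in edgeR; bars show medians). The 9 genes and the other classical monocyte genes centre at −0.40 and −0.22, while mature neutrophil, erythroid and platelet genes centre at 2.10, 3.51 and 2.97.

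Among 19 mature neutrophil genes edgeR called 10 higher in AML KO than in AML WT and none lower, among 15 erythroid genes 13 and among 12 platelet genes 11, against 1.77% of all genes called higher. Without 1 mouse these counts ran from 2 to 15, from 0 to 14 and from 7 to 12, each lowest without AML WT mouse 2. All 6 primary granule genes had a higher fitted level in AML KO, with a median of 0.35, but edgeR called 0, with 3 at an unadjusted p under 0.05, and DESeq2 called 2. Of all 13305 genes, 17.7% had an unadjusted p under 0.05 in edgeR, 51.9% were lower in AML KO and edgeR called 0.323% lower. DESeq2 called 503 of all genes higher and 227 lower. B cell genes (11 in the table) had 0 at an unadjusted p under 0.05 in edgeR, and T and NK cell genes (13) had 3, with 0 called by edgeR. Of 14 dendritic cell genes, 13 were lower in AML KO than in AML WT and 1 was called, Itgax, an integrin of dendritic cells and macrophages, at −1.10 (adjusted p = 0.0457, edgeR; 0.0408 to 0.174 without 1 mouse). In edgeR 10 of the 14 had an unadjusted p under 0.05, DESeq2 called 7 lower, and without 1 mouse edgeR called 0 to 6 lower. The 14 summed to 3785 to 8792 CPM in AML WT, 3652 to 4889 in AML HET and 2268 to 3600 in AML KO mice. As for Lyz1, AML WT mouse 3 was the highest and AML KO mice were the lowest; the part of these cells in the Lyz1 level was not tested.

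Of 13 macrophage genes, 8 were higher and 5 lower in AML KO than in AML WT, with a median of 0.26, and edgeR called 3 higher and 1 lower. Of 6 osteoclast genes, 5 were lower, with a median of −1.08, and edgeR called 2 lower and 1 higher. Of all genes, edgeR called 1.77% higher and 0.323% lower, and 51.9% were lower. Mrc1, the mannose receptor of tissue macrophages, fell by 0.87 on the log2 scale between AML WT and AML KO (adjusted p = 0.0156, edgeR), while Slc40a1, the iron exporter, Vcam1 and Cd5l of red pulp and marrow macrophages rose by 1.17, 1.02 and 2.31. Acp5 and Ctsk, enzymes of osteoclasts, fell by 1.66 and 2.25, and Mmp9, which neutrophils also make, rose by 1.12. All 7 missed the threshold without AML WT mouse 2 (adjusted p of 0.0579 to 0.159). Of the 8 fits without 1 mouse, Acp5 and Ctsk passed in 7, Slc40a1 in 6, Mrc1 in 5, Vcam1 and Cd5l in 2 and Mmp9 in 1, without AML WT mouse 3, and no such fit called over 2 macrophage genes higher.

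Across the 8 mice, the genes most like each member were found by Pearson r of log2 CPM among 10294 genes, as a description only, since the mice share genotype and library effects. Lyz1 was most like Kcnk6 (r = 0.95), Idh3b (0.95) and Zbtb46 (0.95), and Zbtb46 is a transcription factor of dendritic cells. Lyz2 was most like Psme2b (0.96), Ctsb (0.94), a lysosomal protease, and Gcat (0.94). Ccr2 was most like Rubcnl (0.97), and Vcan most like Tirap (0.97). Within the 9, the pairs with the highest r were Lyz2 with Cx3cr1 (0.87) and F13a1 with Vcan (0.87), and the pair of lysozymes had 0.60. Lyz1 and Ly6c2 had 0.08.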

How the data were processed

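RNA of whole BM from 8 mice (3 AML WT, 2 AML HET, 3 AML KO) was sequenced by the authors, who deposited raw counts per gene for 13305 genes, without normalization. The submitters' processing notes name Trimmomatic 0.36, STAR 2.5.2b and mm10, and the counter, annotation and strand setting are not given in the sources used here. No gene had fewer than 106 counts over the mice. Of the Ensembl identifiers, 13266 were found in GENCODE M21 and 39 were not.

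Counts were scaled with TMM and tested in edgeR 4.0.16 (R 4.3.3; quasi-likelihood, robust fit) in a model of genotype over all 8 mice. Benjamini-Hochberg adjustment covered every listed gene, and an adjusted p under 0.05 was called. The fit was tested on simulated data. RPKM is CPM per kilobase of the longest protein-coding transcript. The share of Lyz1 was compared with an exact permutation test. The edgeR p-values set a difference between genotypes against the spread between mice within genotypes, estimated with all 8 mice. Alternatives were DESeq2 1.42.0, limma-voom (limma 3.58.1), RLE and upper-quartile factors, a CPM filter, library sizes without 4 marker lists, a table without its 10 most abundant genes, a replicate block, 2 groups only, the number of Gab2 alleles and each mouse left out. From each of 13 other lists, up to 4 called genes with the smallest p, or otherwise the 2 with the smallest p, could be named, and up to 3 like genes per member. Not all of these are reported. The 9 genes and the lists were chosen with earlier results of these data known.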

Additional observations from a re-analysis of the deposited data

How the results depend on the processing

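Of 1072 log2 fold changes of single genes under the alternatives, 982 kept their direction and their side of the threshold, 67 lost and 10 gained an adjusted p under 0.05, and 13 changed sign. The 1072 pool called and uncalled genes, and an uncalled gene kept its side by staying uncalled. Among called genes, the AML KO against AML WT call held in 14 of 18 alternatives for Lyz1, 16 for Acp5 and 7 for Mmp9. The number of the 9 genes called between AML KO and AML WT, 1 in edgeR, was 2 in DESeq2 and with the number of Gab2 alleles as a numeric term, and 0 to 2 when 1 mouse was left out. Of all genes, 278 were called in edgeR, 730 in DESeq2, and 40 (without AML WT mouse 2) to 370 (without AML KO mouse 2) without 1 mouse. With a replicate block, 0 of the 9 and 19 of all genes were called, and Lyz1 had −1.45 (adjusted p = 0.0745). The labels do not say whether mouse numbers pair the mice. Deviations from group means of same-numbered AML WT and AML KO mice correlated at −0.51, −0.11 and −0.13. The values were 0.08 and 0.29 for AML WT with AML HET and −0.14 and −0.04 for AML HET with AML KO. Deviations within such small groups sum to 0, so these correlations cannot decide whether the numbers pair mice. The share of Lyz1 differed by −0.0731 to −0.0438 percentage points without 1 mouse and by −1.14 as log2(Lyz1/Lyz2).

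The changes of sign were all near 0. Between AML KO and AML WT, Ly6c2 ran from −0.24 to 0.0088 without 1 mouse (0.0047 without AML KO mouse 1, 0.0073 without AML KO mouse 3). Between AML HET and AML WT, Cx3cr1 ran from −0.073 to 0.12, Lyz2 from −0.056 to 0.026 and Ccr2 from −0.17 to 0.18 without 1 mouse, and Cx3cr1 was at −0.026 with the replicate block. Between AML KO and AML HET, Vcan ran from −0.58 to 0.046, Ly6c2 from −0.084 to 0.17 and Cd14 from −0.32 to 0.028 without 1 mouse, and Vcan was at 0.12 with the block. The cause was not tested. Lyz2, 1 of the 10 genes with the most counts, has no value without them. Counts of Ccl2, as low as 1, limit its precision, whereas the spread between mice limits Lyz2.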
